A study of Mus musculus with 6 samples.

Results

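The BCL2 family decides whether a cell commits to the mitochondrial pathway of apoptosis. Guardian proteins such as BCL2, BCL-XL and MCL1 bind and restrain the effectors BAX and BAK, which otherwise open the outer mitochondrial membrane and release cytochrome c. BH3-only proteins, among them BIM, PUMA, NOXA, BMF and BID, relay stress signals by blocking the guardians or engaging the effectors. In lymphocytes the genes for BIM and PUMA are known targets of FOXO factors.

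The set was 10 genes given by name and role, chosen with earlier results of these data known. They are the guardians Bcl2, Bcl2l1 and Mcl1, the BH3-only genes Bcl2l11, Bbc3, Pmaip1, Bmf and Bid, and the effectors Bax and Bak1. A gene was matched where the array's probe table gives a probe set that symbol and no other, and 9 of the 10 were found, each with 1 probe set, among 19937 genes so named. Bax was not analysed here.

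Expression was measured on gene-level microarrays in mouse pro-B cells transformed by the v-Abl oncogene. All 6 samples carried the genotype Foxo1f/f; ERCre on the strain C57/BL6, that is, loxP-flanked Foxo1 together with a Cre recombinase that tamoxifen switches on. The 3 untreated samples received no drug, and 3 samples received 1 µM tamoxifen for 2 days. The comparison asks what changes when Foxo1 is deleted, and cells with intact Foxo1 that received tamoxifen were not analysed here, so effects of the drug or of Cre itself cannot be told apart from those of the deletion. The sources used here give neither the promoter that drives Cre nor whether the line is 1 clone. Nor do they say whether replicate samples were grown separately. The p-values therefore reflect the spread among these 6 samples alone, and that spread may be technical.

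The arrays were alike in scale, with median intensities between 100.9 and 109, and no 2 arrays held identical values. Foxo1 lay between 512 and 806 in the untreated samples and between 116 and 151 after tamoxifen, and its log2 fold change was -2.13 ± 0.15 (SE; limma adjusted p = 0.0178). The call held without untreated sample 1, and it ended with any other sample left out (adjusted limma p from 0.0843 to 0.156), while the fold change stayed between -2.26 and -1.97. Fold changes are tamoxifen over untreated on the log2(intensity + 16) scale, which understates changes of dim genes, and adjusted p-values are Benjamini-Hochberg values over all 34760 probe sets. Of the B lineage markers, 13 were measured, with mean intensities from 60.6 for Rag1 to 4894 for Cd24a. Their log2 fold changes ran from -1.26 to 0.52, and 0 of the 13 passed an adjusted limma p of 0.05. By unadjusted limma p under 0.05, 5 were higher and 2 lower, against 2.97% and 2.14% of all probe sets. Whether the cells were at the same stage in both groups was not tested. The 27 measured markers of T, myeloid, erythroid, megakaryocytic, plasma, NK and stromal cells had means from 28.6 (Cd3g) to 202 (Col1a1), and their intensities summed to 1923 to 2241 without tamoxifen and to 1902 to 2117 with it.

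None of the 9 measured BCL2 family genes passed the test (0 higher and 0 lower by limma at an adjusted p of 0.05), where 0.0575% of all probe sets did, 0.0374% higher and 0.0201% lower. At an unadjusted p under 0.05 limma gave 1 of the 9, Mcl1, against 5.11% of all probe sets, 2.97% higher and 2.14% lower. In 1 of the 9, again Mcl1, the groups did not overlap, against 8.51% of all probe sets. A single gene is close to these background shares and is no result about the family. Fold changes ran from -0.23 for Pmaip1 to 0.35 for Bcl2l1, with a median of 0.03 beside -0.01 over all named genes, and 7 of the 9 were positive where 44.5% of all named genes were. Of the positive genes Bcl2l11, Bbc3, Bmf and Bak1, and of the negative ones Bid, changed sign without at least 1 of the samples.

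**Figure D1:**
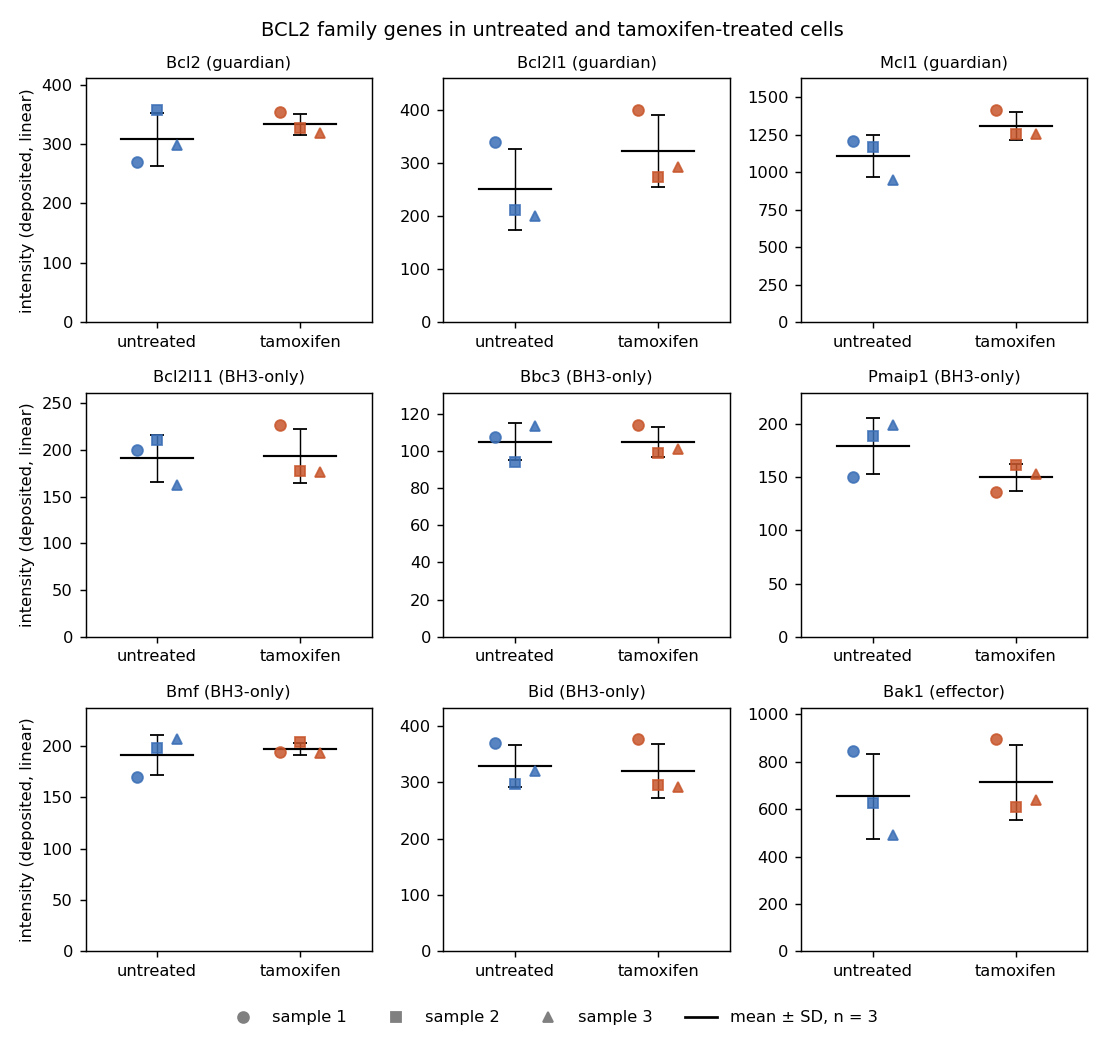
Deposited intensity (linear, axes from 0) of the 9 measured genes in each sample, with circles, squares and triangles for samples 1, 2 and 3 of each group and black bars for the mean ± SD (n = 3). Only in Mcl1 do all 3 tamoxifen samples lie on one side of the untreated samples.

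Among the 5 BH3-only genes Pmaip1 was apart, with a log2 fold change of -0.23. The others ran from -0.06 for Bid to 0.03 for Bmf, and the median of the 5 was 0.01. Because these are bulk samples, fewer cells of a type and less RNA per cell cannot be told apart in any of these values. Bcl2l11 encodes BIM, the BH3-only protein that binds every guardian and is a main mediator of death in cytokine-deprived lymphocytes. A promoter window of Bcl2l11 holds a forkhead element, GTAAACA, and another of its windows does not. A window of Bbc3, which encodes PUMA, also holds the element, there on the other strand as TGTTTAC. The element was searched on both strands, in the 300 bases that run from 250 before to 50 after each start in RefSeq annotation of GRCm38.p6. It was found in 2 of 16 windows of 9 family genes (Bax has a window here, Pmaip1 has none) and in 1199 of 32851 windows of all genes (3.65%). Several windows can belong to 1 gene, and the pair of Bbc3 windows nearest each other overlap. The sequences shown are the 250 bases before the start in that Bcl2l11 window (chr2:128125788-128126037, + strand) and a stretch of 30 bases in that Bbc3 window (chr7:16310083-16310112, + strand). They are shown as the family windows that hold the element, which is in capitals and lies 227 and 167 bases before the respective start.
Bcl2l11: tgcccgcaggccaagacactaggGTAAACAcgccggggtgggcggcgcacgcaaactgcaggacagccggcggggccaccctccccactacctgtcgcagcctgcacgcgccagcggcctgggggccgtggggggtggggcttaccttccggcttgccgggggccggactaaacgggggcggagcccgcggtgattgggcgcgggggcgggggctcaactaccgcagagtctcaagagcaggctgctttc
Bbc3: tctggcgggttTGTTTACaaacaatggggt
A match of letters is a description and not a binding site.

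Bcl2l11 measured 199.9, 210.0 and 163 in untreated samples 1, 2 and 3, respectively, and 227, 178 and 176 in the tamoxifen samples in the same order. The groups overlapped throughout: the highest value was a tamoxifen sample, the lowest an untreated one, and the remaining tamoxifen samples fell between untreated samples. The means were 191 ± 24.9 and 194 ± 28.7 (SD, n = 3). The log2 fold change was 0.01 ± 0.12 (SE; limma adjusted p = 0.9995). The 95% interval of the fold ran from 0.818 to 1.24.

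Bbc3 measured 107, 94.0 and 113 in the untreated samples and 114, 99.2 and 101 after tamoxifen. These 6 values are interleaved, and the group means of 105 ± 9.95 and 105 ± 8.08 (SD, n = 3) are the same to 3 digits. The log2 fold change was 0.01 ± 0.09 (SE), with a 95% interval of the fold from 0.862 to 1.18.

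Pmaip1 encodes NOXA, a BH3-only protein that binds MCL1 and promotes its degradation. Its intensity was 150.0, 189 and 199 in the untreated samples and 136, 161 and 153 after tamoxifen. Untreated sample 1 lay within the tamoxifen range, whereas the other two untreated samples lay above all 3 tamoxifen samples. The log2 fold change was -0.23 ± 0.11 (SE), with a limma adjusted p = 0.9995, an unadjusted p = 0.0793 in the same limma fit and a 95% interval of the fold from 0.707 to 1.03. With 1 sample left out it ran from -0.34 without untreated sample 1 to -0.15 without untreated sample 3.

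Bmf, a BH3-only gene whose protein is held at the cytoskeleton until stress frees it, measured 169, 198 and 206 without and 194, 204 and 194 with tamoxifen. The 3 tamoxifen values lay inside the untreated range. Its log2 fold change was 0.03 ± 0.09 (SE), with a 95% interval of the fold from 0.885 to 1.18. Bid, whose protein links death receptors to mitochondria once caspase-8 cuts it, measured 370.1, 296 and 320.3 without and 376, 295 and 292 with tamoxifen. The groups overlapped, and sample 1 was the highest of both. Its log2 fold change was -0.06 ± 0.11 (SE), with a 95% interval of the fold from 0.793 to 1.15. The mean intensities of Bcl2l11, Bbc3, Pmaip1 and Bmf lay within the range of the 27 markers of other cell types, and the other 5 genes lay above it. Whether the signal of these 4 stood above background was not tested.

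The 3 guardians all had positive fold changes, with none past the test over all probe sets. Mcl1 encodes a short-lived guardian that early B cells need to survive. Its intensity was 1204, 1168 and 949 in the untreated samples and 1413, 1254 and 1255 after tamoxifen. All 3 tamoxifen samples were above the highest untreated sample, by 1254 against 1204 at the closest. The means were 1107 ± 138 and 1307 ± 91.5 (SD, n = 3). The log2 fold change was 0.24 ± 0.07 (SE), or 1.18-fold, with a 95% interval of the fold from 1.04 to 1.33. The limma adjusted p was 0.745 and the unadjusted p of the same limma fit 0.0161. An exact two-sided permutation test gave p = 0.1, the smallest that 3 against 3 samples allow. The unadjusted limma p was 0.0958 where the arrays were scaled to a common median and 0.0666 without further normalization, while the fold change stayed between 0.17 and 0.28 over all alternatives.

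Bcl2l1 encodes BCL-XL, the guardian that supports pre-B cells and other maturing lymphocytes, and the array does not separate it from the shorter pro-death isoform of the gene. Its intensity was 339, 211 and 200.4 in the untreated samples and 399.5, 274 and 292 after tamoxifen. Untreated sample 1 lay above tamoxifen samples 2 and 3, and the other two untreated samples lay below every tamoxifen sample. The log2 fold change of 0.35 ± 0.21 (SE) was the largest in the family and had the widest 95% interval of the fold, 0.901 to 1.80, with a limma adjusted p = 0.9995. With 1 sample left out it ran from 0.22 without tamoxifen sample 1 to 0.57 without untreated sample 1. The unadjusted p of the limma fits at these ends was 0.359 and 0.00692, and the adjusted limma p was 0.499 or more in each of the 6 fits.

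Bcl2, the founding guardian, which is low in pre-B cells relative to mature lymphocytes, measured 269, 357 and 298 without and 353, 327 and 319 with tamoxifen. The tamoxifen samples lay inside the untreated range. Its log2 fold change was 0.09 ± 0.10 (SE), with a 95% interval of the fold from 0.91 to 1.25. With 1 sample left out it ran from 0.00087 without untreated sample 1 to 0.17 without untreated sample 2.

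Bak1, the 1 effector measured, encodes the BAK protein of the outer mitochondrial membrane. It measured 845, 627 and 489 without and 895, 608 and 638 with tamoxifen. The groups overlapped widely, since untreated sample 1 lay above 2 tamoxifen samples and tamoxifen sample 2 lay below 2 untreated samples. The log2 fold change was 0.12 ± 0.19 (SE), with a 95% interval of the fold from 0.795 to 1.48. Without untreated sample 1 it was 0.30, and without untreated sample 3 it was -0.02.

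**Figure D2:**
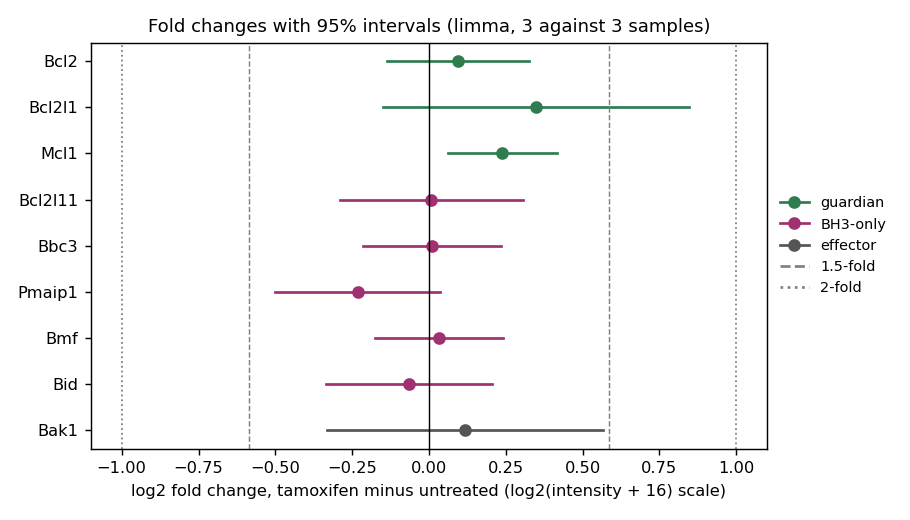
Log2 fold change (tamoxifen minus untreated, points) with its 95% limma interval (lines) for the 9 measured genes, coloured by role, with dashed lines at 1.5-fold and dotted lines at 2-fold. No interval reaches 2-fold, the interval of Bcl2l1 alone passes 1.5-fold, and that of Mcl1 alone excludes 0.

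The intervals, which are not adjusted for the number of genes, describe the measured signal. For Bcl2l11, Bbc3, Pmaip1 and Bmf, whose signal was not tested against background, they do not bound the change in RNA. In 9 of 9 genes the interval stayed inside a 2-fold change, and in 8 of 9 inside a 1.5-fold change, Bcl2l1 being the exception. Over all named genes these shares were 99.5% and 95.9%. The standard errors ran from 0.07 for Mcl1 to 0.21 for Bcl2l1, with a median of 0.11 beside 0.08 for all named genes. Sample 1 was the highest of its group in both the untreated and the tamoxifen group for 4 of the 9 genes, Bcl2l1, Mcl1, Bid and Bak1. Of the samples left out in turn, untreated sample 1 gave the fold changes farthest from 0 for Bcl2l1, Mcl1, Pmaip1 and Bak1.

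**Figure D3:**
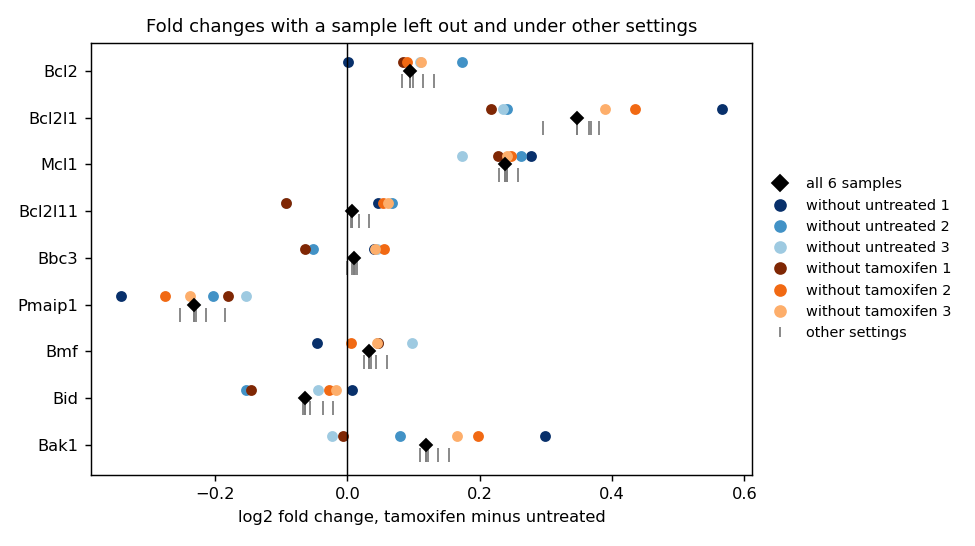
Log2 fold change of each gene with all 6 samples (diamonds), with 1 sample left out (circles, coloured by the sample) and under the other settings (ticks). Bcl2, Bcl2l1, Mcl1 and Pmaip1 keep their sign, while Bcl2l11, Bbc3, Bmf, Bid and Bak1 cross 0 without at least 1 of the samples.

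Of the other BCL2 family genes 13 of 16 listed ones were measured, and 0 of the 13 passed the adjusted limma threshold. At an unadjusted limma p under 0.05 there were 0 higher and 1 lower, against 2.97% and 2.14% of all probe sets. That gene was Bnip3, whose protein has a BH3-like segment and acts mainly in mitophagy under hypoxia. It measured 1017, 1407 and 999 without and 724, 520.1 and 460.0 with tamoxifen. All tamoxifen samples lay below the untreated ones, and the log2 fold change was -1.01 ± 0.17 (SE; limma adjusted p = 0.227). Its relative Bnip3l, which removes mitochondria in maturing red cells, had a log2 fold change of 0.01 ± 0.17 (SE). The remaining genes, Bcl2l2, Bcl2a1c, Bcl2l10, Bok, Bad, Bik, Hrk, Bcl2l12, Bcl2l13, Bcl2l14 and Bcl2l15, lay between -0.08 (Bcl2a1c) and 0.10 (Bcl2l15). Some of these genes were dim. Bcl2a1c had means of 13.8 without and 12.1 with tamoxifen, and Bcl2l10 27.5 and 25.1. Bcl2l14 had 45.2 and 46.4, and Bcl2l15 49.5 and 53.7. Bcl2l2, Bok, Bad, Bik and Bcl2l13 were brighter, with group means from 117 (Bik) to 164 (Bcl2l13), but also within the range of the markers of other cell types. Whether their signal stood above background was not tested. The median of the 13 was 0.0050 beside -0.01 for all named genes.

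Downstream of the mitochondria, 16 of 18 listed genes of the apoptosome, the caspases and their inhibitors were measured, and none passed limma (0 higher and 0 lower, with 0 and 1 at an unadjusted p under 0.05). The unadjusted shares over all probe sets were 2.97% higher and 2.14% lower. The single gene at an unadjusted p under 0.05 was Aifm1, a mitochondrial flavoprotein that moves to the nucleus in some forms of death. It measured 824, 825 and 747 without and 771, 688 and 716 with tamoxifen, with overlapping groups and a log2 fold change of -0.15 ± 0.06 (SE). With any 1 sample left out its unadjusted limma p was 0.0541 or more. The widest values of the list were -0.17 for Casp2, an initiator caspase, and 0.12 for Birc3, an inhibitor of apoptosis protein, and the median was -0.03. Casp6 was dim, with means of 55.8 without and 57.8 with tamoxifen, as was Dffb with 97.4 and 99.6. Whether the signal of these genes stood above background was not tested.

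In the death receptor pathway 10 of 11 listed genes were measured, and 0 passed limma. At an unadjusted limma p under 0.05 it was 0 as well, against 5.11% of all probe sets. Tnf, the cytokine ligand, had the largest positive value (0.23 ± 0.15 SE) and Tnfrsf10b, the mouse TRAIL receptor, the lowest (-0.08 ± 0.07 SE). The median of this list was 0.01. Fas, Fasl, Tnfrsf1a, Tnfrsf10b and Tnfsf10 were dim, with group means from 36.2 (Fas with tamoxifen) to 94.6 (Tnfsf10 without). These means lay within the range of the markers of other cell types, and whether the signal stood above background was not tested. Tnf measured 355, 357 and 290.2 without and 518, 311 and 390.0 with tamoxifen, and its groups overlapped. With 1 sample left out its fold change ran from 0.079 without tamoxifen sample 1 to 0.38 without tamoxifen sample 2.

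Among 13 measured regulators of BCL2 family transcription, of 15 listed, 0 rose and 1 fell over all probe sets, Foxo1 itself. At an unadjusted limma p under 0.05 there were 2 higher and 3 lower, against 2.97% and 2.14% of all probe sets. The targeted gene Foxo1 is 1 of the 3, and the list was chosen with earlier results of these data known. The median was 0.07. Trp53 was not analysed here. Mdm2, which encodes the ubiquitin ligase that restrains p53 and is itself a p53 target, measured 638, 623 and 544 without and 805, 709.8 and 709.9 with tamoxifen. Its groups did not overlap, and the log2 fold change was 0.28 ± 0.06 (SE; limma adjusted p = 0.377). Stat5b, a transcription factor downstream of cytokine receptors and Abl kinases and a known activator of Bcl2l1 and Mcl1, measured 226, 203 and 174 without and 344, 222 and 249 with tamoxifen. Tamoxifen sample 2 lay within the untreated range of Stat5b, and the log2 fold change was 0.37 ± 0.15 (SE; limma adjusted p = 0.958). It was 0.22 without tamoxifen sample 1, and its unadjusted limma p was above 0.05 without tamoxifen sample 1 or 3 or untreated sample 2 or 3 (0.0710 to 0.137). The paralog Stat5a, in the same list, went the other way, at -0.18 ± 0.09 (SE). Myc, a growth regulator that can also prime cells for death, measured 3467, 3877 and 3671 without and 3225, 3136 and 3123 with tamoxifen. All 3 tamoxifen samples were lower, with a log2 fold change of -0.22 ± 0.07 (SE; limma adjusted p = 0.721). Runx1, a transcription factor of early haematopoietic cells, measured 799, 631 and 590.1 without and 601, 466 and 524 with tamoxifen. Its groups overlapped, with a log2 fold change of -0.34 ± 0.11 (SE; limma adjusted p = 0.815). Its unadjusted limma p was 0.0736 without tamoxifen sample 2. The paralog Foxo3, which can also drive Bcl2l11 and Bbc3, measured 0.10 ± 0.06 (SE).

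Of 13 measured genes that control the stability or activity of family proteins, of 16 listed, 0 passed the adjusted limma threshold. There were 0 higher and 1 lower at an unadjusted limma p under 0.05, against 2.97% and 2.14% of all probe sets. Pim2, a survival kinase that phosphorylates and disables the BH3-only protein BAD, measured 253, 314 and 260.4 without and 186, 181 and 189.9 with tamoxifen. The groups were clear of each other, and the log2 fold change was -0.54 ± 0.08 (SE; limma adjusted p = 0.185). Ubiquitin ligases that act on MCL1 protein lay on both sides of 0, at -0.19 ± 0.09 for Huwe1, -0.16 ± 0.09 for Btrc and 0.15 ± 0.08 for Fbxw7 (SE). The groups of Huwe1 did not overlap either, which held for 8.51% of all probe sets. Fbxw7 was 0.063 with its 2 probe sets averaged and 0.091 without untreated sample 1. The median of the list was -0.0014.

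**Figure D4:**
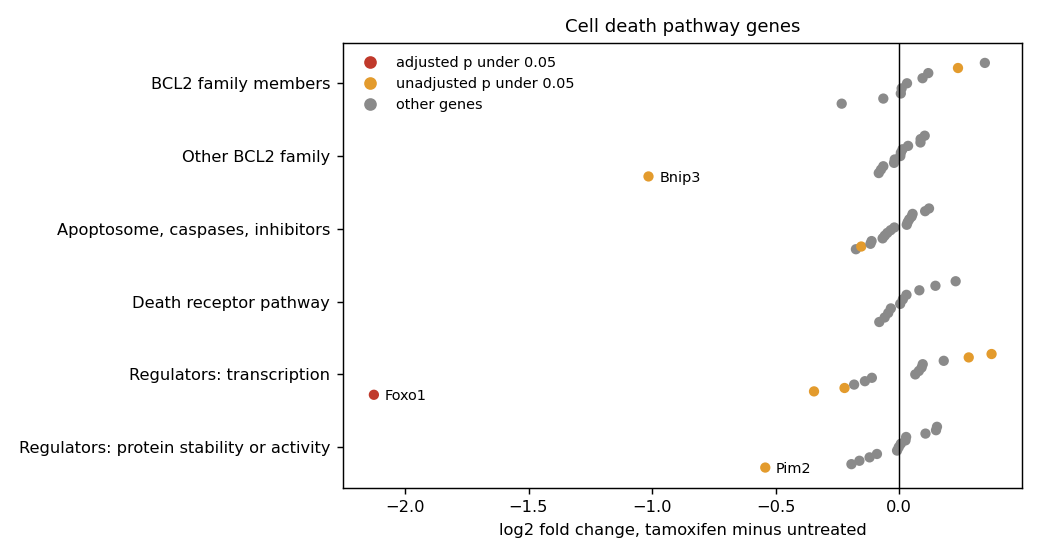
Log2 fold change (tamoxifen minus untreated) of each measured gene of the BCL2 family set and of 5 lists of cell death pathway genes, 1 point per gene, coloured by whether it passed the adjusted or only the unadjusted limma threshold of 0.05. Foxo1 is the single gene past the adjusted threshold, and Bnip3 and Pim2 are the other genes beyond 0.5 on this scale.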

How the data were processed

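The deposited values are linear intensities, which the authors had summarised to 1 per probe set and array. The sources used here do not say how background was corrected or arrays were normalized. Sample titles gave the groups and replicate numbers. The fit used log2(intensity + 16) after quantile normalization, with limma 3.58.1 (lmFit, eBayes, two-sided) in R 4.3.3 and Benjamini-Hochberg adjustment over all 34760 probe sets. Steps were tested on simulated data. Intensities printed by sample and overlap between groups refer to the deposited values. Probe sets were named where the platform's probe table gave 1 symbol (21640 probe sets), the brightest standing for its gene. Members and lists were chosen with earlier results of these data known. All members and Foxo1 were named, and from each list the genes at an unadjusted p under 0.05, or the largest rise and fall where there were fewer than 2. Other genes named beside them, among them Bnip3l, Foxo3 and Huwe1, were chosen after their values were seen. Promoter sequences are from RefSeq (GRCm38.p6). No coordinates are given for probe sets, whose build is not given. Figures were drawn with matplotlib 3.10.9.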

Additional observations from a re-analysis of the deposited data

How the results depend on the processing

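No alternative brought a member past an adjusted p of 0.05 (0 of 9 with all samples, with each sample left out and under 8 other settings, except that Bbc3 was not tested where dim probe sets were left out). With 1 sample left out, members at an unadjusted p under 0.05 numbered 1 to 3 and members without overlap 1 to 3. Without untreated 1 both were 3, against 6.12% and 18.7% of all probe sets. Without untreated 2 or tamoxifen 1 there were 2 without overlap, against 20.9% and 19.3% of all probe sets. Members at an unadjusted p under 0.05 numbered 0 after scaling to a common median and 0 without further normalization. Over the 6 left-out samples the log2 fold change ran from -0.093 to 0.067 for Bcl2l11, -0.064 to 0.055 for Bbc3, -0.046 to 0.097 for Bmf, -0.15 to 0.0075 for Bid and -0.023 to 0.30 for Bak1. Without further normalization Bbc3 was -9.71e-05. All probe sets called numbered 20 with all samples, 0 to 6 with 1 sample left out (0 without untreated 2, untreated 3, tamoxifen 2 or tamoxifen 3, with 1360 to 2218 at an unadjusted limma p under 0.05), 3 after median scaling, 12 without further normalization, 46 without dim probe sets, 11 at a pseudocount of 1, 12 with an intensity trend and 73 where probe sets of a gene were averaged. Pathway genes called numbered 1, with 0 to 1 when a sample was left out (1 only without untreated 1), 0 after median scaling and 3 with averaged probe sets, where Bnip3 (-0.96, limma adjusted p = 0.0406) and Pim2 (-0.54, 0.0383) joined Foxo1. Foxo1 ran from -2.26 to -1.97 with 1 sample left out (limma adjusted p from 0.0276 to 0.156) and was -2.12 after median scaling (limma adjusted p = 0.05003). The cause of these changes was not tested. A fit with a replicate block called 0 probe sets by limma (2525 at an unadjusted p under 0.05) and 0 pathway genes, Foxo1 was -2.13 (adjusted p = 0.0936), and 3 members had an unadjusted p under 0.05, Bcl2l1 (0.0127), Mcl1 (0.0227) and Pmaip1 (0.0358). Deviations of same-numbered samples correlated at 0.256, 0.0547 and 0.302, and those of differently numbered samples at -0.420 to 0.248. These values do not settle whether same-numbered samples are pairs, and the labels do not say. The main fit therefore took no pairs, and the block fit is given as an alternative. The number of arrays limits the precision.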
